A study of Arabidopsis thaliana with 8 samples.

Results

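The share of a gene's RNA that lies outside its coding sequence was compared between elf18-treated and mock-treated Arabidopsis leaves. For each gene and RNA library the share was calculated as 1 minus the coding-sequence count divided by the exon count, given here as a percentage. Genes entered with at least 100 exon counts in each of the 4 RNA libraries and a coding count not above the exon count in any of them. This left 6934 of the 27172 genes in the tables, and 5 further genes reached the exon minimum but had a coding count above the exon count.

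A messenger RNA carries an untranslated leader before its coding sequence and an untranslated trailer after it. Leaders can hold upstream open reading frames, which are short frames that regulate translation of the main one, and trailers end at the poly(A) site. In Arabidopsis the choice of start site, poly(A) site or splice site can change how much of the transcript is untranslated. The share of counts outside the coding sequence is a ratio within a gene. In these libraries it also varied with the number of counts, as given below, so it does not read the make-up of transcripts alone. The leader, the trailer and other noncoding exon sequence are not separated in these counts.

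The plants were of the Col-0 ecotype, 3 weeks old, and all of them, mock included, carried a luciferase transgene behind the TBF1 leader (35S:uORFsTBF1-LUC). The strong 35S promoter drove this transgene. Leaves were infiltrated with 10 mM MgCl2 as mock or with elf18 at 10 µM, which is derived from the bacterial translation factor EF-Tu and is sensed by the receptor kinase EFR. Each library came from a lysate that pooled 2 leaves per plant from about 24 plants, with n = 2 RNA libraries per group. The labels do not state when leaves were harvested after infiltration, and nothing in the labels shows whether replicates were separate experiments, so p-values measure only the spread between these lysates.

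The mock libraries had totals of 15031282 and 7898180 exon counts, and the elf18 libraries 11127372 and 15405467. The elf18 libraries held counts for fewer genes, 14343 and 14007, than the mock libraries, with 16912 and 17104. All 33 photosynthesis genes on a fixed list were counted in every library and summed to 206944, 202621, 173674 and 188782 CPM, exon counts scaled to a common library total (mock replicates 1 and 2, then elf18 replicates 1 and 2, the order used for every set of 4 values below). The 7 guard cell markers summed to 3180, 3182, 2993 and 2654 CPM, the 6 vascular markers to 562, 485, 531 and 685, and the 5 epidermis and trichome markers to 170.1, 155, 160 and 161, with 1 of the last list at 0 in every library. Fewer cells of a type and less RNA per cell cannot be told apart in such leaf samples.

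The share outside the coding sequence was a little lower with elf18 when all counts were pooled. Over the 6934 genes, 18.9% of exon counts in each mock library lay outside the coding sequence, against 18.0% and 16.8% with elf18. The group means were 18.9% ± 0.0110 and 17.4% ± 0.871 (SD, n = 2), a difference of -1.55 percentage points. The mock pair was nearly identical, and the elf18 pair differed by almost as much as the groups did. With 2 libraries in each group the smallest p of an exact permutation test is 0.333, and no such p is given. Without the 100 most abundant genes the shares were 16.0%, 16.1%, 15.8% and 14.3%, so elf18 replicate 1 then lay close to mock and elf18 replicate 2 below it.

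The typical gene showed the same order. The median share was 12.9% and 13.1% in mock and 11.9% and 9.25% with elf18. The lower quartile moved further, from 6.36% and 6.71% to 1.39% and 0%. The upper quartile was not lower with elf18, at 22.7% and 22.8% in mock and 25.1% and 22.8% with elf18. The elf18 shares were thus spread more widely on the low side and at the high end: 401 and 437 genes had at least 50% of their counts outside the coding sequence with elf18, against 253 and 249 in mock.

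**Figure D1:**
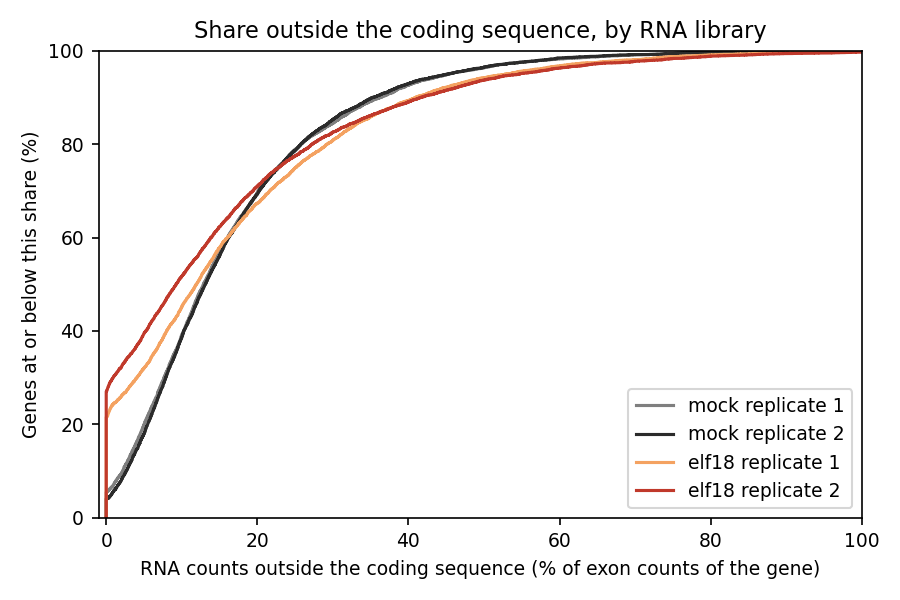
Cumulative distribution of the share of exon counts outside the coding sequence over 6934 genes (x axis, percent; y axis, percent of genes at or below that share), with 1 line for each RNA library. The elf18 lines start higher because 21.5% and 27.0% of genes had no count outside the coding sequence there, against 5.49% and 4.1% in mock, and they cross the mock lines at larger shares.

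Many genes had no count at all outside the coding sequence in an elf18 library. This was so for 1494 and 1875 of the 6934 genes with elf18 and for 381 and 284 in mock. Zeros were more frequent in genes with few counts: among 3376 genes whose lowest library held 100 to 299 exon counts, 34.4% and 40.7% were at 0 with elf18 and 9.51% and 7.41% in mock. Among 1103 genes with at least 1000 exon counts in every library the figures were 1.81% and 3.26% with elf18 and 0.0907% in each mock library. Of 3514 genes with a share of at least 10% in both mock libraries, 627 (17.8%) were at 0 in at least 1 elf18 library and 113 in both. In the opposite direction, 2435 genes had at least 10% in both elf18 libraries, and 2 of these were at 0 in both mock libraries. The zeros moved with the lower number of genes detected in the elf18 libraries, and the part of that difference in the zeros was not tested.

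Replicates did not give the same shares with elf18 to the degree that they did in mock. Across genes the mock replicates correlated at r = 0.817 (Spearman's rho 0.745) and the elf18 replicates at r = 0.498 (rho 0.441), as a description over 6934 genes that share their libraries. The median absolute difference between replicates was 4.36 percentage points in mock and 7.62 with elf18. Replicates were more than 20 points apart in 251 genes in mock and in 1424 genes with elf18. Against counting error, the chi-square per degree of freedom between replicates was 13.2 in mock (6516 genes with expected counts of at least 5) and 67.2 with elf18 (5841 genes), so spread beyond counting was present in both groups.

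**Figure D2:**
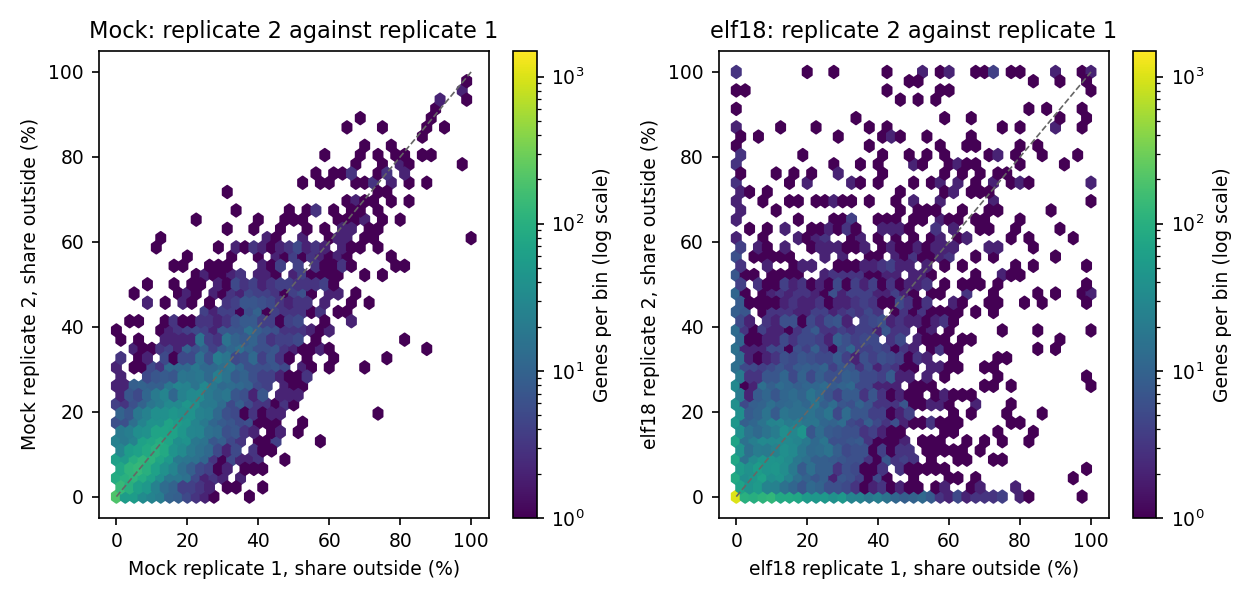
Share outside the coding sequence (percent) in replicate 2 against replicate 1, for mock (left) and elf18 (right), with colour giving the number of genes per bin on a log scale and the dashed line marking equal shares. Mock genes lie along the line (r = 0.817), whereas elf18 genes scatter and line the axes, where 1 replicate has no count outside the coding sequence (r = 0.498).

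Abundant genes were measured more precisely. At 1000 or more exon counts in each library the replicates correlated at r = 0.955 in mock and 0.853 with elf18, with median absolute differences of 1.99 and 3.93 points. The medians of these 1103 genes were 12.5%, 12.7%, 12.6% and 10.7%. Here elf18 replicate 1 did not lie below mock, and the lower group mean came from elf18 replicate 2.

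The gene-by-gene difference was then set against replicate differences. The elf18 mean share was below the mock mean in 4021 genes (58.0%), above it in 2821 and equal in 92, with a median difference of -1.23 points and a range from -15.6 to 17.1 points between the 5th and 95th percentiles. The difference of the replicate 1 libraries and that of the replicate 2 libraries, which have no library in common, did not correlate across genes (r = -0.00260). With the mock libraries exchanged, r was 0.000147. At 1000 or more exon counts these values were -0.0750 and 0.0293. The groups did not overlap in 796 genes (11.5%) on the higher and 1783 (25.7%) on the lower side, and 952 of the latter had no outside count in an elf18 library. With a gap of at least 10 points these counts were 161 and 272.

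Treatment was tested for each gene as an interaction of part (coding or outside) and treatment with edgeR's quasi-likelihood test, which gives the change in the log2 odds of an outside against a coding count. The test needed at least 10 outside and 10 coding counts over the 4 libraries, which 6728 genes had. Of the other 206, 91 had no outside count in any library and 115 had too few. No gene was called at a Benjamini-Hochberg adjusted p under 0.05 in either direction (0% of 6728), and 612 genes had an unadjusted p under 0.05, 34 higher and 578 lower with elf18. The smallest adjusted p was 0.473. The median change was -0.52 in log2 odds and -0.17 without elf18 replicate 2. In limma it was -0.56, and -0.25 when each library was centred on its own median.

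Other tools differed. limma on log2 ratios also called none (707 genes at an unadjusted p under 0.05). DESeq2 called 14 genes higher (0.208% of genes tested) and 390 lower (5.8%). Of the 390, 331 had 0 outside counts in both elf18 libraries, 35 in 1 of them and 24 in neither. Without elf18 replicate 1 the edgeR test called 34 genes higher and 822 lower. Without elf18 replicate 2 it called none. A fit with a lone elf18 library takes its spread from the mock pair.

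The genes with the smallest p on the lower side were genes that went from a modest share to none. COR413-PM1, a cold-regulated membrane protein, had 10.6% and 15.8% of its counts outside in mock and 0% in both elf18 libraries. Its elf18 libraries held 2200 exon counts together, and 0 of these allows a share of up to 0.136% by counting error alone. With the elf18 group set to a floor of 3 counts the odds were 104-fold lower. This limit leaves out the spread between replicates, which went beyond counting, so it does not bound a treatment effect. edgeR gave this gene an unadjusted p of 0.00118 and an adjusted p of 0.473. The CEP peptide receptor kinase gene CEPR2 (AT1G72180) had shares of 11.0%, 10.1%, 0% and 0%. ARA12, a subtilisin-like protease, had 3.11%, 3.47%, 0% and 0%, and AT5G22090 had 4.93%, 3.98%, 0% and 0%. At the same floor the odds of CEPR2, ARA12 and AT5G22090 were 58.4-fold, 36.5-fold and 56.7-fold lower, with the same edgeR adjusted p of 0.473. In all 4 genes the groups did not overlap, and the mock counts outside ran from 54 to 253 per library. None of the 4 was called changed in RNA amount (edgeR adjusted p from 0.0683 for CEPR2 to 0.627 for AT5G22090). The RNA estimates of all 4 were lower with elf18, at log2 changes of -1.16 for CEPR2, -0.79 for COR413-PM1, -0.52 for ARA12 and -0.22 for AT5G22090. The part of lower amounts in the zeros was not tested. DESeq2 called all 4 lower, with adjusted p from 3.94e-05 for COR413-PM1 to 0.000425 for ARA12. The loci of CEPR2 and AT5G22090 overlap neighbours.

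On the higher side 2 of the 4 genes with the smallest p had outside counts in all libraries. CDSP32, a thioredoxin-like stress protein of chloroplasts, had shares of 6.61% and 7.31% in mock and 19.1% and 14.9% with elf18. Its log2 odds change was 1.44 ± 0.33 (standard error, edgeR adjusted p = 0.473), and it was positive in all 16 settings tried, from 1.23 to 1.75. These settings refit the same 4 libraries or subsets of them, and CDSP32 was picked by its small p, so the constant sign is no independent support. AT3G54210 had 6.30%, 4.87%, 12.2% and 12.3%, a change of 1.25 ± 0.26 (adjusted p = 0.473), and under DESeq2 its adjusted p was 0.0297. Each library held at least 2695 exon counts of CDSP32 and 5174 of AT3G54210, and neither was called changed in RNA amount. EDA10 had 0%, 0%, 5.31% and 5.89%, and EMB3142 had 0%, 0%, 9.52% and 4.41%. The mock libraries of EDA10 held 2076 exon counts, which by counting error alone allows a share of up to 0.145%. At a mock floor of 3 counts its odds were 41.1-fold higher with elf18, and those of EMB3142 were 31.0-fold higher. These limits also leave out the spread between replicates. DESeq2 called EDA10 (adjusted p = 0.000849) and EMB3142 (0.00189), and not CDSP32 (0.0501). The locus of EDA10 overlaps a neighbour, AT1G01950, in the locus table of assembly TAIR10.1, so its outside counts may include reads of that gene.

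Genes with well-measured parts and the widest gap between the groups were also sought, by a rule chosen after their values were seen: at least 300 exon and 30 outside counts in each library, ranked by the gap between the nearest mock and elf18 libraries. Of 2374 such genes, groups did not overlap in 362 on the higher and 499 on the lower side, where 11.5% and 25.7% of all members did not, and edgeR called 0%. PBS1, a receptor-like cytoplasmic kinase that an immune receptor guards, had the widest gap on the higher side, with 12.8% and 11.0% in mock and 46.6% and 40.1% with elf18. BPM1, an adaptor of CUL3 ubiquitin ligases, had 7.11%, 25.4%, 50.6% and 57.8%, and the DNA-binding protein gene PUR ALPHA-1 had 35.2%, 37.2%, 61.8% and 74.4%. TUA1, an alpha-tubulin gene with close relatives, had 10.9%, 8.71%, 43.1% and 28.9%. The loci of BPM1, PUR ALPHA-1 and TUA1 overlap neighbours, and that of PBS1 does not.

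On the lower side the widest gaps included PIP2B, an aquaporin of the plasma membrane with near-identical relatives, at 47.1% and 55.2% in mock and 27.1% and 19.5% with elf18. AT5G03850 had 46.2%, 52.6%, 17.4% and 17.8%. AT5G54760 had 73.7%, 62.8%, 42.5% and 30.8%. AT5G08680 had 52.6%, 53.5%, 29.6% and 36.6% from at least 1072 exon counts in each library. How reads that match several genes were counted is not stated in the labels. The share of any of these genes that has near-identical relatives is therefore uncertain as a level, also where counts are many. The 16 genes with the widest gaps, 8 in each direction, had edgeR adjusted p from 0.57 to 0.949, and none was called changed in RNA amount. Their RNA estimates ranged from a log2 change of -1.03 for PIP2B to 0.47 for AT5G02610.

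Genes known for upstream open reading frames bear most directly on the leader. Of 32 listed genes 15 met the count rule, and none was called (0% over all genes). Their medians were 27.3%, 20.0%, 27.6% and 25.2%, against 12.9%, 13.1%, 11.9% and 9.25% over all genes. The groups did not overlap in 4 genes on the higher and 4 on the lower side, where 11.5% and 25.7% of all members did not, and 4 of the 15 were at 0 in an elf18 library, against 2484 of all 6934. The list's median difference was -1.73 points, against -1.23 over all members.

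TBF1, a transcription factor of the heat shock factor family that supplied the transgene's leader, had shares of 61.6% and 55.5% in mock and 53.6% and 41.0% with elf18. All elf18 values lay below mock, although mock replicate 2 and elf18 replicate 1 were 1.95 points apart. The log2 odds change was -0.66 ± 0.53 (edgeR adjusted p = 0.949). Its coding counts were 51.3 and 49.0 CPM in mock and 67.9 and 66.2 with elf18, 1.34-fold of the mock mean. Its outside counts were 82.2, 61.2, 78.4 and 46.1 CPM, 0.868-fold. The coding counts thus separated the groups and the outside counts did not, as a description of 2 libraries a group. Exon counts of TBF1 were not called changed, at a log2 change of 0.23 ± 0.20 (edgeR adjusted p = 0.785). Footprints on the TBF1 coding sequence, which come from separate libraries of the same lysates, were 101 and 101 CPM in mock and 113 and 125 with elf18. Because the transgene holds the TBF1 leader, leader reads of the transgene and of TBF1 cannot be told apart in the outside counts.

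The S1-group bZIP transcription factor genes, whose leader peptide responds to sucrose, did not share a pattern. BZIP53 kept a high share in each library, at 59.4%, 58.2%, 62.2% and 59.5%. For bZIP2 the elf18 replicates lay on either side of mock, at 17.8% and 46.04% against 33.5% and 34.1%. For bZIP1 the shares were 37.5%, 39.3%, 36.7% and 0%, so the low group mean came from elf18 replicate 2 alone, with 148 exon counts there.

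The other genes of the list ranged from narrow to wide spreads. SAMDC, the S-adenosylmethionine decarboxylase of polyamine synthesis, had 25.5%, 24.2%, 27.6% and 25.4% from 23861 to 47753 exon counts per library. Its log2 odds change was 0.12 ± 0.16. VTC2, an enzyme of ascorbate synthesis, had 24.3%, 24.2%, 29.4% and 25.2%, and its relative VTC5 had 33.7%, 18.1%, 41.2% and 41.1%. ARF2, an auxin response factor, had 12.8%, 12.2%, 14.2% and 9.27%. The kinase gene CIPK6 had 27.3%, 18.1%, 32.1% and 28.9%. PMEAMT, a methyltransferase of choline synthesis, had 13.0%, 11.3%, 7.44% and 10.9%. AT1G73600 had 15.8%, 19.0%, 29.6% and 0%, so its elf18 replicates lay on opposite sides of mock. The lowest difference of the list was that of AT3G25570, which had 31.9%, 17.8%, 3.65% and 0%. The polyamine oxidase gene PAO4 had 31.2%, 22.4%, 12.6% and 25.4%, and TPS1, a trehalose phosphate synthase, 10.2%, 0.314%, 10.5% and 0%. In TPS1 the replicates differed and the groups overlapped. The loci of PAO4 and TPS1 overlap neighbours.

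**Figure D3:**
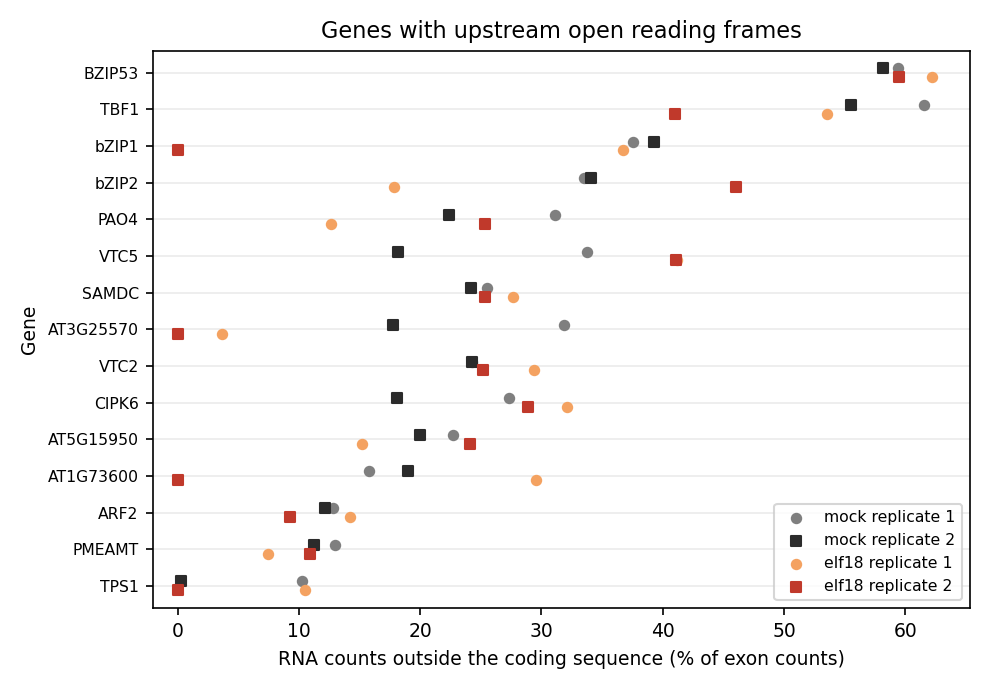
Share of exon counts outside the coding sequence (x axis, percent) for the 15 genes with upstream open reading frames that met the count rule (y axis, ordered by mock mean), with a point for each RNA library. BZIP53 and SAMDC stay within narrow ranges, TBF1 runs from 61.6% down to 41.0%, and bZIP1 drops to 0% in elf18 replicate 2 only.

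Immune response genes let the share be read in transcripts that rose in amount. Of 48 listed genes 42 met the count rule, and exon counts of 32 of these rose with elf18 and of none fell by edgeR (3.04% of 15870 genes rose and 0.158% fell). None was called changed in share (0% over all genes), which with 2 libraries a group does not show that the shares were kept. The median difference was -0.779 points against -1.23 over all members. The groups did not overlap in 5 of the 42 genes on the higher and 8 on the lower side, where 11.5% and 25.7% of all members did not. Of the 42 genes 1 had no outside count in an elf18 library and 5 had none in a mock library, against 2484 and 546 of all 6934. CERK1, the chitin receptor kinase, was in both counts, with shares of 7.51%, 0%, 1.51% and 0%.

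Transcription factors of the early response went both ways. WRKY33, which controls camalexin synthesis, had shares of 14.2%, 13.5%, 9.98% and 11.6%, with a log2 odds change of -0.42 ± 0.26 (edgeR adjusted p = 0.949), while its exon counts rose by 2.25 ± 0.13 on the log2 scale. WRKY40 had 32.1%, 28.2%, 26.3% and 27.0%, and WRKY18, its partner in repression, 13.0%, 18.5%, 7.84% and 10.7%. By contrast WRKY53 had 1.60%, 5.00%, 9.26% and 12.8%, and WRKY22 11.4%, 10.6%, 18.5% and 12.3%. WRKY53 had an outside level of 1.35 ± 0.96 CPM in mock and 19.7 ± 1.31 with elf18 (SD, n = 2), and its coding counts were 4.09-fold of mock. The loci of WRKY33, WRKY40 and WRKY53 overlap neighbours, as do those of FLS2, NPR1, MKK4, MPK3, EFR, BAK1 and SARD1.

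ZAT12, a zinc finger protein of stress responses, had the smallest p of the list on the higher side. Its shares were 0.949% and 0% in mock and 11.9% and 7.98% with elf18, from 5 and 0 outside counts against 181 and 197. The log2 odds change was 4.16 ± 1.13 (edgeR adjusted p = 0.473). Exon counts of ZAT12 rose by 2.61 ± 0.35 on the log2 scale (adjusted p = 0.0161), so coding counts, at 5.04-fold of mock, were higher too. EDS1, a lipase-like protein of basal resistance, had shares of 7.07%, 7.66%, 11.1% and 11.6%, and the flagellin receptor gene FLS2 had 3.93%, 4.22%, 10.8% and 5.66%.

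Among the immune response genes BZIP60 had the smallest p on the lower side. Its product acts in the endoplasmic reticulum stress response as a transcription factor, and its RNA is a substrate of unconventional splicing by IRE1. Its shares were 15.9% and 9.76% in mock and 5.68% and 4.24% with elf18, from 259, 83, 283 and 301 outside counts. The log2 odds change was -1.47 ± 0.44 (edgeR unadjusted p = 0.0264, adjusted p = 0.473), and it was negative in all 15 settings that could be fitted, from -1.87 to -1.07. Those settings refit the same libraries, so the constant sign is no independent support. Coding counts of BZIP60 were 4.58-fold of mock and outside counts 1.62-fold, and its exon counts rose by 2.22 ± 0.12 on the log2 scale. NPR1, a salicylic acid receptor, had shares of 10.5%, 10.6%, 7.27% and 3.75%. Its coding counts were 1.89-fold of mock and its outside counts 0.931-fold. The ethylene response factor gene ERF1A had 8.79%, 10.6%, 5.90% and 5.28%.

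Kinase and receptor genes showed how the replicates limit the comparison. MPK11, a MAP kinase gene, had the highest mock share of the list, at 58.3% and 43.2%, and 35.2% and 39.5% with elf18. MKK4, which acts above MPK3 and MPK6, had 17.2%, 16.4%, 15.3% and 8%, and MPK3 had 17.0%, 18.1%, 14.3% and 17.6%. For EFR, the elf18 receptor, the shares were 15.1%, 14.6%, 16.6% and 13.0%, with a log2 odds change of -0.01 ± 0.80 (edgeR adjusted p = 0.997). The co-receptor BAK1 had 20.7% and 20.2% in mock and 31.0% and 8.51% with elf18, so its elf18 replicates lay on opposite sides of mock. SARD1, a calmodulin-binding-protein-like transcription factor, did the same, with 18.3%, 29.9%, 9.19% and 40.6%.

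**Figure D4:**
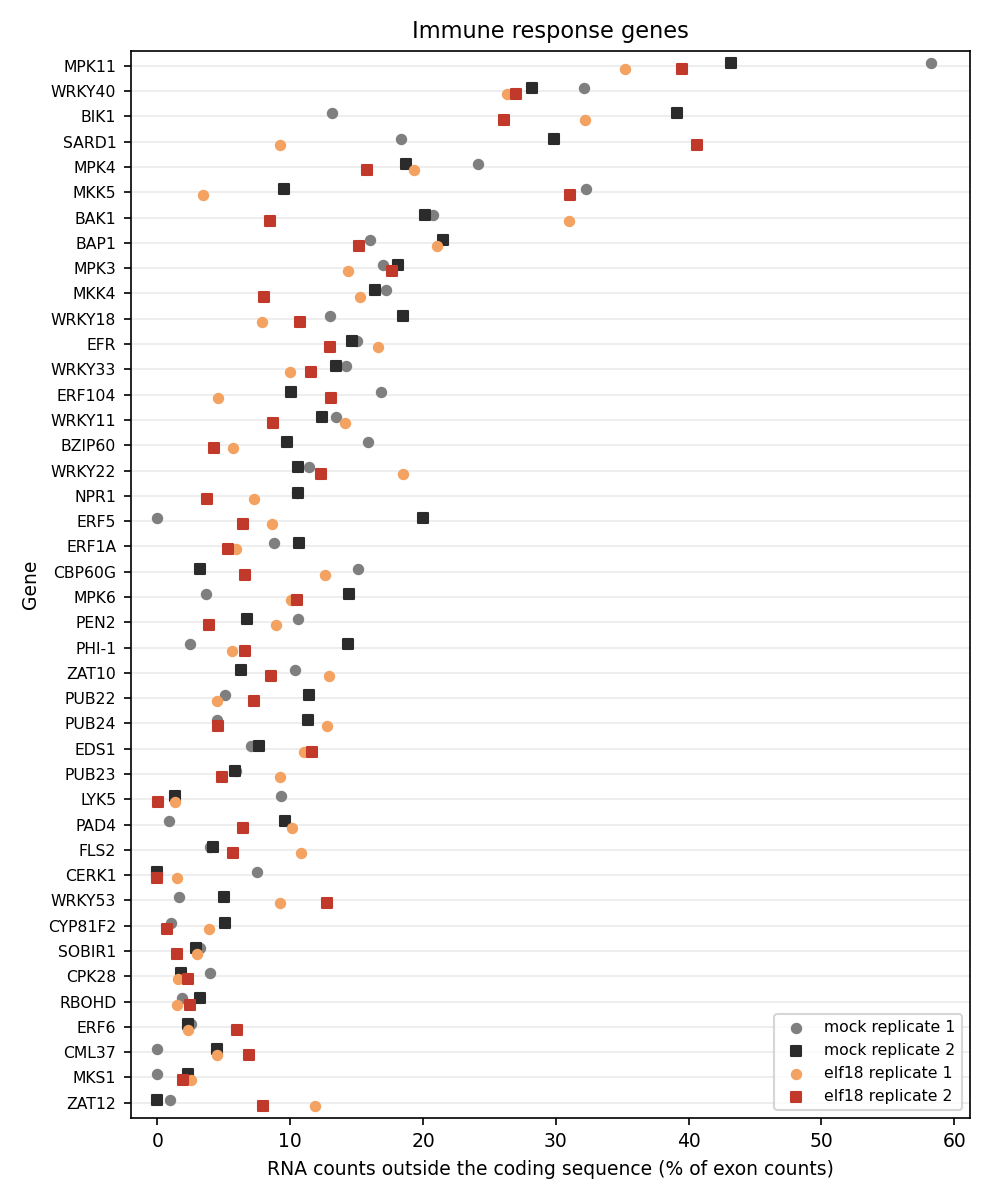
Share of exon counts outside the coding sequence (x axis, percent) for 42 immune response genes (y axis, ordered by mock mean), with a point for each RNA library. BZIP60 and NPR1 have both elf18 points below both mock points, EDS1, WRKY53 and ZAT12 have them above, and BAK1 and SARD1 have an elf18 point on either side.

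**Figure D5:**
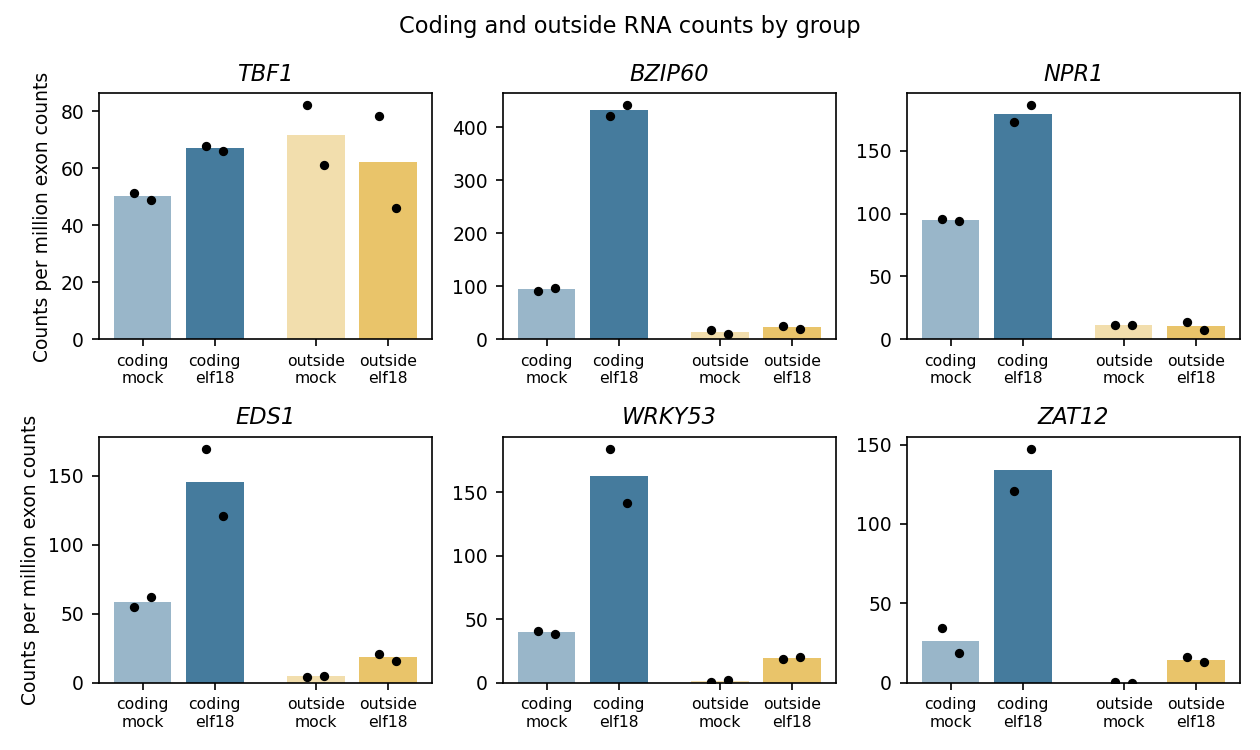
RNA counts on the coding sequence (blue) and outside it (yellow) in CPM of the library's exon total (y axis, linear, from 0), with bars at the group mean and points for the 2 libraries of a group. In TBF1 the outside points of mock and elf18 overlap, in BZIP60 the coding bar is 4.58-fold of mock and the outside bar 1.62-fold, and in ZAT12 the outside counts go from 0.333 and 0 to 16.3 and 12.8 CPM.

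Genes whose RNA rose had medians close to those in mock. Of the 483 risen genes 410 met the count rule, and their medians were 11.3%, 10.6%, 11.2% and 9.32%. Their median difference was -0.598 points (0% called in share). The groups did not overlap in 45 of these 410 genes on the higher and 84 on the lower side. Over all members 11.5% and 25.7% did not. Zeros were as frequent with elf18 as in mock in these genes, at 5.12%, 5.37%, 4.88% and 5.85%, against 21.5% and 27.0% with elf18 over all members. Risen genes have more counts in the elf18 libraries by their definition, and the part of this in the zeros was not tested. Of the 25 genes whose RNA fell 24 met the rule, with a median difference of -0.907 points. Without elf18 replicate 1 or replicate 2 edgeR called 1678 or 1568 genes risen and 2699 or 2258 fallen, and without mock replicate 1 it called 15 fallen.

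Photosynthesis genes, the most abundant transcripts of the leaf, were measured from many counts. All 33 met the rule and none was called. The elf18 mean was below mock in 27 of 33, against 58.0% of all members. Among the 1103 genes with at least 1000 exon counts in each library it was below mock in 62.5%. The groups did not overlap in 12 on the lower side and 1 on the higher, against 25.7% and 11.5% of all members, and the median difference was -1.45 points against -1.23 over all members. RBCS1B, a Rubisco small subunit gene, had 67.8% and 66.1% in mock and 56.9% and 60.0% with elf18, a log2 odds change of -0.53 ± 0.18 (edgeR adjusted p = 0.498). RBCS1A, its most abundant relative, had 34.7%, 34.9%, 33.8% and 27.0%. PSBS, the photosystem II protein of energy quenching, had 7.29%, 7.14%, 5.68% and 3.42%, and GAPB, a Calvin cycle enzyme, 6.91%, 7.60%, 4.84% and 5.77%. PSBO1, a subunit of the oxygen-evolving complex, had 13.1%, 13.1%, 12.9% and 12.3%, from 7945 to 15042 outside counts per library.

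Some of these shares were far above those of other genes. The light-harvesting genes LHCB1.1, LHCB1.2 and LHCB1.3 had mean mock shares of 75.8%, 76.4% and 80.4%, and LHCB1.4 had 30.1%. The LHCB1 and RBCS genes have close relatives within each family, and their sequences were not compared here. How reads that match several genes were counted is not stated in the labels. Their shares are therefore uncertain as levels.

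Genes that shape RNA ends and RNA decay gave no shared direction. Among 3′ end processing genes 8 of 17 met the rule, with 4 elf18 means below and 4 above mock. ESP1, a factor of 3′ end processing, had 12.9%, 5.30%, 0% and 0%, the poly(A) polymerase gene PAPS1 10.3%, 11.3%, 2.04% and 6.20%, and FPA, a regulator of poly(A) site choice, 7.93%, 8.09%, 12.3% and 17.6%. The loci of PAPS1 and FPA overlap neighbours. Among RNA decay and poly(A)-binding genes 15 of 19 met the rule, with 10 below and 5 above. The poly(A)-binding protein gene PAB2 had 14.0%, 13.3%, 12.2% and 8.46%, and VCS, a decapping scaffold, 23.5%, 23.3%, 25.4% and 26.1%.

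Splicing regulators also went both ways. Of 21 genes 17 met the rule, with 8 elf18 means below and 9 above mock and a median difference of 2.98 points. The glycine-rich RNA-binding genes GRP7 and GRP8, which regulate each other's splicing, lay on opposite sides of mock. GRP7 had shares of 33.2%, 38.1%, 23.0% and 1.54%, from 283, 168, 222 and 130 exon counts. Its share in elf18 replicate 2 came from 2 outside counts. GRP8 had 25.9%, 23.8%, 35.0% and 38.1%. The edgeR adjusted p was 0.949 for GRP7 and 0.949 for GRP8, and a link between their shares was not tested. The serine-arginine-rich factor gene SC35 had 38.6%, 17.3%, 0.995% and 15.4%, and its locus overlaps a neighbour. No gene of these 3 lists was called (0% over all genes).

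Cytosolic ribosomal protein genes were evenly divided, with 12 of 23 elf18 means below and 11 above mock and none called. RPL5A and RPL5B, which encode the same ribosomal protein, had 49.7%, 40.7%, 33.1% and 37.8%, and 38.0%, 43.7%, 21.9% and 37.9%. EMB2296, a gene of ribosomal protein L8, had 19.9%, 20.3%, 19.9% and 18.7%. PGY2 had the highest shares of the list, at 63.9%, 87.2%, 91.3% and 97.2%, and its locus overlaps a neighbour. Of 13 circadian clock genes 6 met the rule, 3 below and 3 above. The clock gene CCA1 had 3.12%, 5.60%, 1.39% and 2.54%, and TOC1 had 20.4%, 14.1%, 23.1% and 47.0%. Of the cell type markers 4 guard cell, 3 vascular and 2 epidermis and trichome genes met the rule, with median differences of 2.03, -0.377 and 0.606 points and none called.

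Genes whose locus overlaps another had nearly the same median difference as the others. In the locus table (assembly TAIR10.1, used here only for which loci overlap) 2267 of the 6934 genes overlapped another locus. Their median difference was -1.39 points, against -1.14 for the 4667 others. Genes with mock shares of at least 50%, 221 in number, had medians of 61.4%, 59.6%, 59.0% and 60.0%, and the 1826 genes from 20% to 50% had 29.0%, 28.3%, 26.5% and 24.8%. Close to the exon minimum, 282 genes with a lowest library of 100 to 109 counts had medians of 13.4%, 13.7%, 1.85% and 0.962%, and 342 genes just below it, with 90 to 99, had 13.0%, 14.4%, 5.83% and 0.503%.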

How the data were processed

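The deposited tables give, per gene, raw counts of reads on exons and on the coding sequence for the 4 RNA libraries, and on the coding sequence for the 4 footprint libraries, 8 libraries in all, and footprints were used only as levels for TBF1. Per the submitters' processing notes, the authors used CASAVA 1.8.2, Bowtie2 2.0, HTSeq and the TAIR10 build. Strand and multiple-match settings are not given in the sources used here, so reads of overlapping or near-identical genes may be misplaced.

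The outside count was the exon count minus the coding count. It was tested on the deposited counts with edgeR 4.0.16 (R 4.3.3), with terms for library, part and part by treatment and the same offset for both parts, leaving 2 residual degrees of freedom. RNA amount was tested on exon counts of all genes with edgeR (TMM, minimum count 10). P-values were Benjamini-Hochberg adjusted over all genes tested, with a threshold of 0.05. DESeq2 1.42.0 and limma 3.58.1 (pseudocount 0.5) were alternatives, with other count minimums, libraries left out and a replicate block. The fits were tested on simulated data with the same dispersion in both groups, which did not cover the wider spread of the elf18 pair. Limits for 0 counts (3 counts of the total) cover counting error only, since no molecular identifiers are described. Exon depth ran from 7898180 to 15405467 counts per library.

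Named genes were TBF1, WRKY33, EFR and BZIP60, genes called with a mean of at least 30 counts in each part and no overlap (up to 10 per direction, and up to 3 per list), and, where fewer than 4 were called in a direction, those with the smallest p up to 4. Other members of the 11 lists (224 genes) and the genes with the widest gaps were chosen after their values were seen. The members and lists were chosen with earlier results of these data known. Symbols came from the files' loci matched to a locus table of assembly TAIR10.1 (26685 of 27172 matched).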

Additional observations from a re-analysis of the deposited data

How the results depend on the processing

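The count of genes called changed in share was 0 in both directions under edgeR with TMM factors within each part, limma, other count minimums and without overlapping loci. DESeq2 gave 14 higher and 390 lower, and leaving out 1 library gave 0 to 34 higher and 0 to 822 lower, with the calls made without elf18 replicate 1. The median log2 odds change stayed negative, at -0.25 with centred libraries, -0.69, -0.31 and -0.20 with exon minimums of 30, 300 and 1000, -0.048 with 10 outside counts in each library, and -0.56 to -0.17 with 1 library left out. With 10 outside counts in each library 52.3% of 3857 genes lay below 0, against 66.5% of 6728 in the main fit. At an unadjusted edgeR p under 0.05 that setting had 71 genes higher and 104 lower, against 34 and 578. It leaves out every gene with an outside count of 0 in a library. The minimum of 1000, the 10 outside counts and the overlap filter were chosen after seeing the data. The difference of median shares was -4.96 points at a minimum of 30 and -0.957 at 1000, and -3.74 to -1.06 with 1 library left out, and that of summed shares -2.16 to -0.929. RNA amount rose in 1245 and fell in 1383 genes under DESeq2, fell in 47 without a filter, and rose in 462 to 1678 and fell in 15 to 2699 with 1 library left out. EFR changed sign, to 0.30 with centred libraries and 0.01 and 0.19 without mock replicate 1 and elf18 replicate 2, within a range of -0.22 to 0.19 with 1 library left out. The cause of these shifts was not tested. Replicate deviations from the group means did not correlate between same-numbered libraries (r = -0.00426 for log2 odds), so the numbers were not taken as pairs. With the replicate block 0 genes were called changed in share, and 747 were called risen and 169 fallen in RNA amount. At low exon counts, outside counts of 0 limit the shares, and n = 2 limits every test.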
